A study of Rattus with 12 samples.

Results

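Adcyap1, Bdnf, Ostn, Vgf, Scg2, Nptx2 and Inhba encode secreted factors that were grouped as activity-dependent. Whether these genes followed electrical activity in the cultures was not tested. They are 7 of the 17337 genes in the count table, taken by symbol, and all 7 passed the filter on low counts that left 12271 genes for testing. The 7 genes were selected on these same counts, in which most of them had been seen to be lower at the high dose of fentanyl. Their differences between conditions are therefore a description and support no claim about the dose. Calls from the fit over all genes are printed beside their background, and nothing is read from them for these 7 genes. RNA was measured in 12 complex cultures of Sprague Dawley rat cortical neurons, astrocytes and oligodendrocyte precursor cells, which were bought as isolated cells and grown together. At 24 to 26 days in vitro they were left untreated, or received fentanyl, a µ-opioid receptor agonist, at 0.01 µM (low dose) or 10 µM (high dose) for 4 days, with 4 cultures per condition. The labels give the untreated cultures the letters A, G, M and P, the low dose cultures B, H, N and Q, and the high dose cultures C, I, O and R. Consecutive letters form 4 sets with 1 culture per condition, written here as ABC, GHI, MNO and PQR, which no source names as a shared batch or pairing. The sources do not say whether the 4 cultures of a condition came from separate cell preparations, so the spread between them may be technical.

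When a neuron fires, calcium entry and cyclic AMP activate CREB and MEF2 bound to DNA. Immediate early transcription factors such as Fos and Npas4 are made first, and a later group of genes codes for proteins that leave the cell. Most of these are stored in dense core granules, cut by prohormone convertases and released on further firing, and they adjust synapses and survival in the cells around them. Opioids act on receptors coupled to Gi proteins, which lower cyclic AMP and dampen firing.

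Total counts ranged from 12059872 to 17023909 in untreated, 12907388 to 16512387 in low dose and 15102785 to 24813893 in high dose cultures. Values below are CPM, counts relative to the TMM-scaled library total, and they compare cultures for 1 gene, not genes with each other, since transcript lengths were not used here. Untreated culture G stood apart. Its summed CPM over 12 neuron markers was 632, against 3556 to 7470 in the other 11 cultures, and that over 7 glutamatergic neuron markers was 31.7, against 938 to 1834. The neuronal nuclear protein gene Rbfox3 was at 1.30 CPM in G and at 58.6 to 93.5 CPM elsewhere. Fibroblast markers summed to 2981 CPM in G and to 4409 CPM in low dose culture N, the highest of all. Differences that use G are given with and without it where they are summarised. In bulk RNA, fewer cells of a type and less RNA per cell cannot be told apart.

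Of the 7 genes, 6 had their highest mean at the low dose and their lowest at the high dose over all 12 cultures. The exception was Inhba. Without G, Ostn also had its highest mean in untreated cultures. It was 12.9 ± 13.1 CPM there (SD, n = 3), against 11.7 ± 9.42 CPM at the low dose (SD, n = 4). Within the letter sets, Adcyap1, Bdnf, Vgf, Scg2 and Nptx2 were lower at 10 than at 0.01 µM in all 4 sets, and Ostn was lower in the 3 sets in which it was detected above the floor. Between neighbours in the order low dose, untreated and high dose, the means of the 6 genes differed by less than the larger SD of the pair, apart from Vgf between untreated and high dose. The ranges of the conditions overlapped for all 7 genes.

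**Figure D1:**
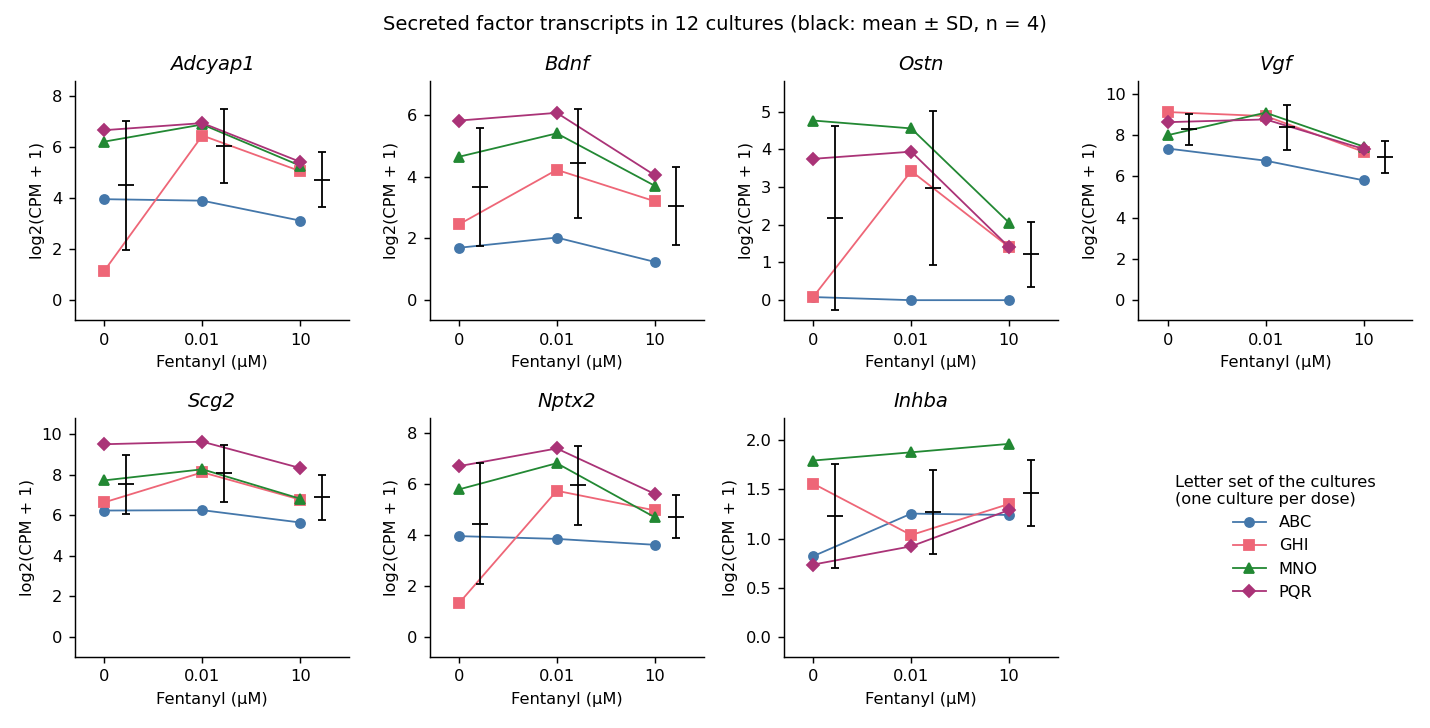
Level of each secreted factor, as log2(CPM + 1), against the fentanyl concentration in µM (categories, not to scale), with a coloured line for each letter set and black bars for the mean ± SD of 4 cultures. For 5 genes every line falls from 0.01 to 10 µM, Ostn lies at 0 in B and C, and untreated culture G departs from its set in Adcyap1, Nptx2 and Ostn.

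Adcyap1 encodes PACAP, a neuropeptide that raises cyclic AMP through its receptor on neurons and glia. Its untreated levels were 14.5 CPM in A, 1.23 in G, 72.7 in M and 99.5 in P. Low dose levels were 13.9 CPM in B, 85.9 in H, 116 in N and 121 in Q. High dose levels were 7.64 CPM in C, 32.0 in I, 37.3 in O and 41.5 in R. High dose cultures I, O and R therefore lay above the low dose culture B, while each high dose culture lay below the low dose culture of its own letter set. The ratio between them was 1.81-fold in ABC, 2.68-fold in GHI, 3.12-fold in MNO and 2.91-fold in PQR. The mean was 47.0 ± 46.8 CPM untreated, 84.2 ± 49.4 CPM at the low dose and 29.6 ± 15.2 CPM at the high dose (SD, n = 4 each). Without G, the untreated mean was 62.2 ± 43.5 CPM (SD, n = 3).

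Vgf encodes a granule protein that is cut into several peptides with roles in plasticity and energy balance. Untreated cultures held 162 CPM in A, 553 in G, 254 in M and 394 in P. Low dose cultures held 107 CPM in B, 483 in H, 542 in N and 432 in Q. High dose cultures held 55.0 CPM in C, 145 in I, 173 in O and 160 in R. High dose cultures I, O and R lay close together, and only A and B among the other conditions reached down to their range. The high dose was lower than the low dose by 1.95-fold in ABC, 3.33-fold in GHI, 3.13-fold in MNO and 2.71-fold in PQR. Vgf was also the only one of the 7 genes lower at the high dose than in the untreated culture of all 4 sets, with within-set differences of -1.54, -1.93, -0.55 and -1.30 on the log2(CPM + 1) scale in that order of the sets. Its highest level of all 12 cultures was in the neuron-poor culture G.

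Scg2 encodes secretogranin II, the granule precursor of secretoneurin. It measured 74.5 CPM in A, 99.1 in G, 211 in M and 729 in P without fentanyl. At the low dose it measured 75.4 CPM in B, 278 in H, 309 in N and 795 in Q. At the high dose it measured 49.1 CPM in C, 109 in I, 112 in O and 322 in R. The set PQR was the highest and ABC the lowest in every condition, and the high dose culture R exceeded low dose cultures B, H and N. Within the sets the high dose was lower than the low dose by 1.54-fold in ABC, 2.56-fold in GHI, 2.75-fold in MNO and 2.47-fold in PQR.

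Bdnf encodes brain-derived neurotrophic factor, which supports survival and strengthens synapses through the receptor TrkB. The untreated cultures A, G, M and P held 2.24, 4.48, 24.0 and 55.4 CPM. The low dose cultures B, H, N and Q held 3.08, 17.7, 41.3 and 66.1 CPM. The high dose cultures C, I, O and R held 1.36, 8.22, 12.1 and 15.5 CPM. Levels in ABC were the lowest of each condition, and the low dose culture was the highest of its set in all 4 sets. The high dose was lower than the low dose by 2.26-fold in ABC, 2.15-fold in GHI, 3.43-fold in MNO and 4.25-fold in PQR. The condition means were 21.5 ± 24.6, 32.0 ± 27.6 and 9.30 ± 6.08 CPM for untreated, low dose and high dose (SD, n = 4 each), and 27.2 ± 26.7 CPM untreated without G (SD, n = 3).

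Ostn encodes osteocrin, a small secreted protein of bone and muscle that binds the natriuretic peptide clearance receptor. Whether activity induces Ostn in rat neurons was not tested. It was at or under the floor of 3 counts in A, B, C and G, with 1 count in A, none in B, none in C and 1 in G. Above the floor it measured 26.3 CPM in M and 12.5 in P without fentanyl, and 9.76 CPM in H, 22.6 in N and 14.4 in Q at the low dose. At the high dose it measured 1.65 CPM in I, 3.16 in O and 1.65 in R, from 33, 49 and 40 counts. Where detected, every high dose culture lay below every untreated and low dose culture, and the ratio of low to high dose was 5.90-fold in GHI, 7.15-fold in MNO and 8.69-fold in PQR. No ratio can be given in ABC, where counts of 0 allow up to 0.231 CPM in B and 0.178 CPM in C, counting error only.

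Nptx2 encodes a neuronal pentraxin that gathers AMPA receptors at excitatory synapses. Its untreated levels were 14.5 CPM in A, 1.49 in G, 54.3 in M and 103 in P. Its low dose levels were 13.4 CPM in B, 52.3 in H, 112 in N and 168 in Q. Its high dose levels were 11.3 CPM in C, 30.3 in I, 25.0 in O and 48.1 in R. The ABC cultures were nearly level with each other, with a ratio of low to high dose of 1.19-fold, whereas the ratio was 1.73-fold in GHI, 4.49-fold in MNO and 3.49-fold in PQR.

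Inhba encodes the βA subunit of activin, a secreted member of the TGF-β family. It was close to the limit of detection, with 8 to 45 counts per culture. Levels were 0.767, 1.95, 2.47 and 0.665 CPM in A, G, M and P, then 1.39, 1.05, 2.68 and 0.894 CPM in B, H, N and Q, and 1.36, 1.55, 2.90 and 1.45 CPM in C, I, O and R. The MNO set was highest in each condition and the groups overlapped throughout. Its mean was highest at the high dose, at 1.82 ± 0.73 CPM against 1.501 ± 0.81 at the low dose and 1.46 ± 0.89 untreated (SD, n = 4 each), and 1.3 ± 1.01 CPM untreated without G (SD, n = 3). Inhba did not share the pattern of the other 6 genes.

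The comparison of the high with the low dose asked how the response depended on concentration. The median of the 7 fitted log2 fold changes was -1.58, beside a median of -0.01 over all 12271 genes. The fitted log2 fold changes were -1.55 (SE 0.49) for Vgf, -1.58 (SE 0.92) for Adcyap1, -1.31 (SE 0.81) for Scg2, -1.79 (SE 1.06) for Bdnf, -2.92 (SE 1.73) for Ostn, -1.71 (SE 0.86) for Nptx2 and 0.28 (SE 0.44) for Inhba. The SEs of Ostn and Bdnf exceeded 1, and those of Vgf and Inhba were under 0.5. Without low dose culture N, Adcyap1 was at -0.95 and Ostn at -1.88, and without Q, Scg2 was at -0.68. Inhba ranged from 0.03 without O to 0.62 without N. A gene was called where its log2 fold change exceeded 0.5 in either direction and its Benjamini-Hochberg adjusted p, from edgeR's quasi-likelihood test, was under 0.05. None of the 7 genes was called, beside 0 of all genes (0%). At an unadjusted p under 0.05, 1 of the 7 genes was found (Vgf), beside 144 of all genes (1.17%), while DESeq2 called 1 gene in all and edgeR's likelihood ratio test called 0. Lower values in all 4 letter sets were seen for 5 of the 7, beside 1356 of all genes (11.1%). A high dose group entirely below the low dose group was seen for 0 of the 7, beside 64 of all genes (0.522%). The calls depended on the model. With a block by letter set, 5 of the 7 genes were called when G was left out, beside 14 of 12337 genes (0.113%), and 3 of the 7 when G, H and I were left out, beside 5 of 12253 genes (0.0408%). With 4 RUVs factors, 6 of the 7 were called, beside 113 of 12271 genes (0.921%). Because the genes were chosen with this contrast known, nothing is read from these shares.

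The letter set took a larger share of the variation than the condition for each of the 7 genes. On the log2(CPM + 1) scale, the mean within-set difference between high and low dose was -1.44 ± 0.35 for Vgf, -1.33 ± 0.38 for Adcyap1, -1.18 ± 0.39 for Scg2, -1.38 ± 0.58 for Bdnf, -1.76 ± 1.20 for Ostn, -1.23 ± 0.88 for Nptx2 and 0.19 ± 0.18 for Inhba (SD, n = 4 sets). The ABC set showed the smallest drop for Adcyap1, Bdnf, Vgf, Scg2 and Nptx2, and Ostn had no counts there at either dose. Of the variation of the log2(CPM + 1) values, the letter set took 47.4% for Adcyap1, 50.0% for Vgf, 52.1% for Nptx2, 63.5% for Ostn, 76.5% for Inhba, 80.1% for Bdnf and 80.2% for Scg2. The condition took most for Vgf, 42.0%, and between 6.70% (Inhba) and 16.4% (Nptx2) for the others. Without GHI, the condition took 35.5% for Vgf and 12.5% to 18.0% for the others.

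**Figure D2:**
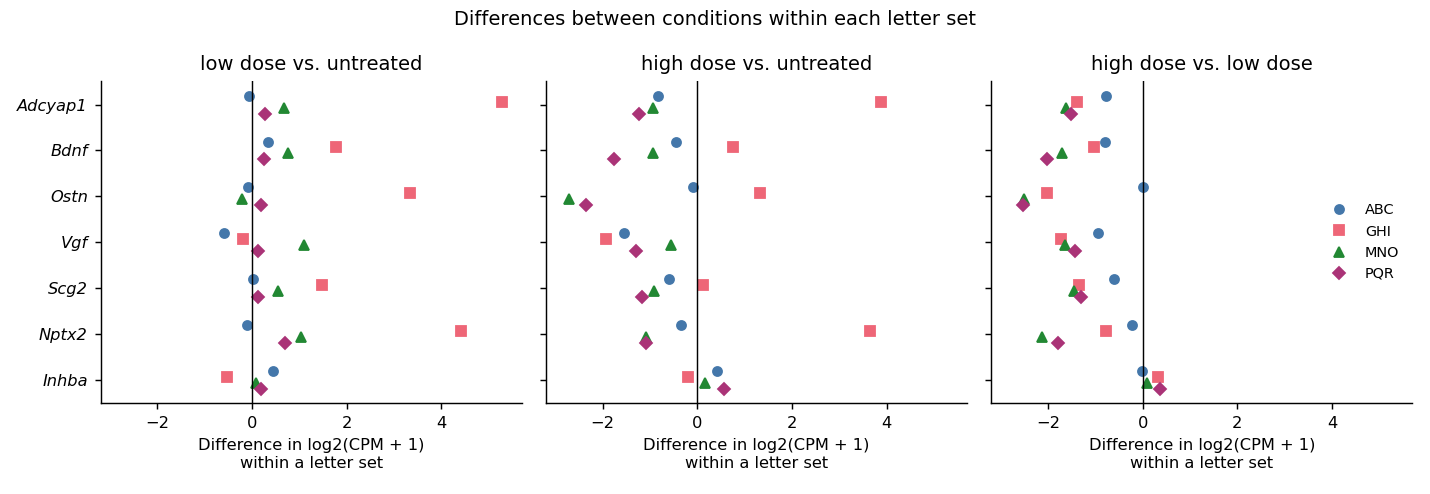
Differences in log2(CPM + 1) between the cultures of a letter set for each gene (rows), with low dose minus untreated, high dose minus untreated and high minus low dose from left to right and a symbol for each set. High minus low dose lies at or left of 0 for the first 6 genes in every set, and the points far to the right in the other panels belong to GHI, which uses untreated culture G.

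The comparison of the high dose with untreated cultures asked what exposure at the larger concentration changed. Vgf, Scg2 and Bdnf had fitted log2 fold changes of -1.11 (SE 0.49), -1.08 (SE 0.83) and -1.22 (SE 1.06). Ostn was at -2.49 (SE 1.71), Adcyap1 and Nptx2 were both at -0.48 (SE 0.90 and 0.85), and Inhba was at 0.55 (SE 0.46). Their median was -1.08, beside 0.00 over all genes. None of the 7 genes was called in edgeR's quasi-likelihood test with Benjamini-Hochberg adjustment, beside 0 of all genes (0%), and DESeq2 called 3 genes in all and the likelihood ratio test 2. At an unadjusted p under 0.05, 1 of the 7 was found (Vgf), beside 146 of all genes (1.19%). Lower values in all 4 letter sets were seen for the same 1 of the 7, beside 640 of all genes (5.22%). With the block by letter set, 2 of the 7 were called without G, beside 15 genes (0.122%), and 1 of the 7 without G, H and I, beside 2 genes (0.0163%). With 4 RUVs factors, 3 of the 7 were called, beside 39 genes (0.318%). Again nothing is read from the shares.

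Untreated culture G decided the direction of the mean within-set difference for Adcyap1 and Nptx2 in this comparison. The fitted directions stayed the same without G. Against G, the high dose culture I was higher by 3.89 for Adcyap1, 3.65 for Nptx2, 1.32 for Ostn, 0.75 for Bdnf and 0.13 for Scg2 on the log2(CPM + 1) scale. In the other sets the same genes were lower at the high dose than untreated, Ostn in ABC by a single count. The mean within-set difference was 0.22 for Adcyap1 and 0.28 for Nptx2 over 4 sets, and -1.01 and -0.84 without GHI. Without GHI, Vgf, Scg2, Bdnf and Ostn averaged -1.13, -0.89, -1.05 and -1.71. In the fit without G, the log2 fold changes were -0.87 (SE 0.44) for Vgf, -0.66 (SE 0.23) for Scg2, -0.70 (SE 0.58) for Adcyap1, -0.78 (SE 0.71) for Bdnf, -2.70 (SE 1.51) for Ostn, -0.57 (SE 0.47) for Nptx2 and 0.44 (SE 0.55) for Inhba. Leaving out other cultures also moved the values. Leaving out untreated M moved the fitted log2 fold change of Adcyap1 to 0.13 and that of Ostn to -0.93. Leaving out untreated P moved Scg2 to 0.30, Nptx2 to 0.29, Adcyap1 to 0.03, Bdnf to -0.05 and Vgf to -0.72. Nptx2 was at -0.08 without M and -0.17 without high dose culture C, Adcyap1 at -0.11 without C and -0.88 without O, and Scg2 at -1.67 and Nptx2 at -0.74 without R. Inhba ranged from 0.28 without O to 1.14 without M.

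The comparison of the low dose with untreated cultures asked what the smaller concentration changed. Over all genes, 6551 of 12271 fitted log2 fold changes were above 0. All 7 fitted log2 fold changes were above 0, at 1.23 (SE 0.86) for Nptx2, 1.11 (SE 0.91) for Adcyap1, 0.57 (SE 1.04) for Bdnf, 0.44 (SE 0.49) for Vgf, 0.43 (SE 1.6) for Ostn, 0.27 (SE 0.46) for Inhba and 0.23 (SE 0.83) for Scg2. In the fit without G they were 0.83 (SE 0.47), 0.74 (SE 0.59), 0.80 (SE 0.71), 0.66 (SE 0.45), 0.10 (SE 1.4), 0.16 (SE 0.56) and 0.49 (SE 0.23) in the same order of the genes. The values moved with single cultures, and 3 genes changed sign. With each culture left out in turn, Nptx2 ranged from 0.55 (without N) to 1.95 (without P), Adcyap1 from 0.37 (N) to 1.70 (M), Bdnf from 0.07 (Q) to 1.71 (P), Vgf from 0.08 (A) to 0.82 (P), Ostn from -0.63 (N) to 1.99 (M), Inhba from -0.12 (N) to 0.86 (M) and Scg2 from -0.33 (Q) to 1.59 (P). None of the 7 genes was called by edgeR's quasi-likelihood test with Benjamini-Hochberg adjustment, beside 0 of all genes (0%), and 0 of the 7 had an unadjusted p under 0.05, beside 91 of all genes (0.742%). DESeq2 and the likelihood ratio test also called 0 genes. Higher values in all 4 letter sets were seen for 2 of the 7, Bdnf and Scg2, beside 498 of all genes (4.06%). The Bdnf differences were 0.33, 1.77, 0.76 and 0.25 on the log2(CPM + 1) scale in ABC, GHI, MNO and PQR, and the Scg2 difference in ABC was 0.02. Adcyap1 and Nptx2 differed by 5.28 and 4.42 in GHI and by no more than 1.03 in the other sets. Their mean within-set difference was 1.54 and 1.51 over 4 sets, and 0.30 and 0.54 without GHI. For Bdnf it was 0.78 and 0.45, for Scg2 0.54 and 0.23, for Ostn 0.81 and -0.03, for Vgf 0.11 and 0.21, and for Inhba 0.04 and 0.23. Both comparisons with the low dose use the same 4 low dose cultures, and their values are not independent.

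**Figure D3:**
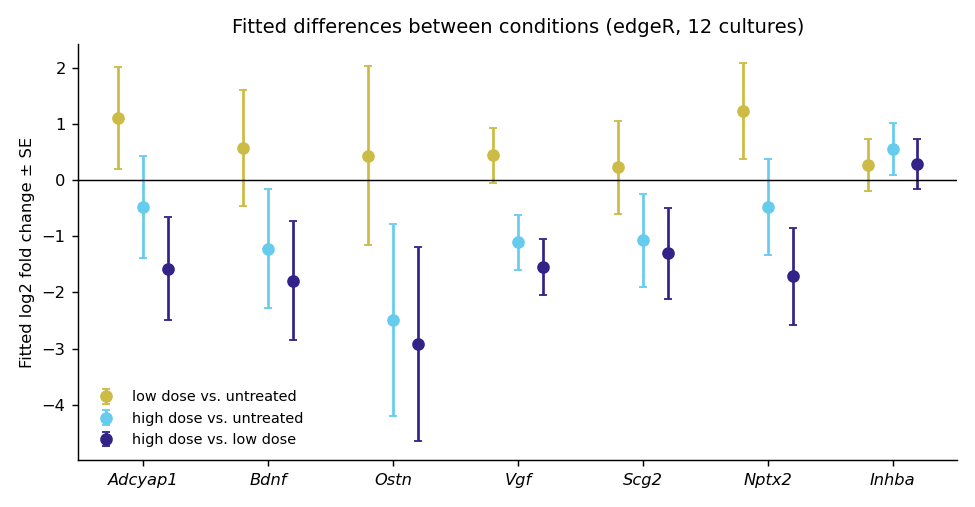
Fitted log2 fold change ± SE for each of the 7 genes (x axis) in the 3 comparisons (colours), from 1 edgeR fit to 12 cultures. High vs. low dose lies between -2.92 and -1.31 for 6 genes and at 0.28 for Inhba, and the bars are longest for Ostn.

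The 6 genes other than Inhba varied together. Over the 11 cultures without G, Pearson's r of log2(CPM + 1) between them had a median of 0.908 over 15 pairs, from 0.784 (Ostn with Scg2) to 0.978 (Bdnf with Nptx2). Over all 12 cultures the median was 0.818 and the lowest 0.327. As deviations from the set mean over the 9 cultures of ABC, MNO and PQR, the median was 0.927, and Adcyap1 with Scg2 gave 0.996. Inhba had r from -0.705 to -0.495 with the other 6 on that scale. These are descriptions over points that share libraries and depth, and the genes were chosen for their likeness.

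**Figure D4:**
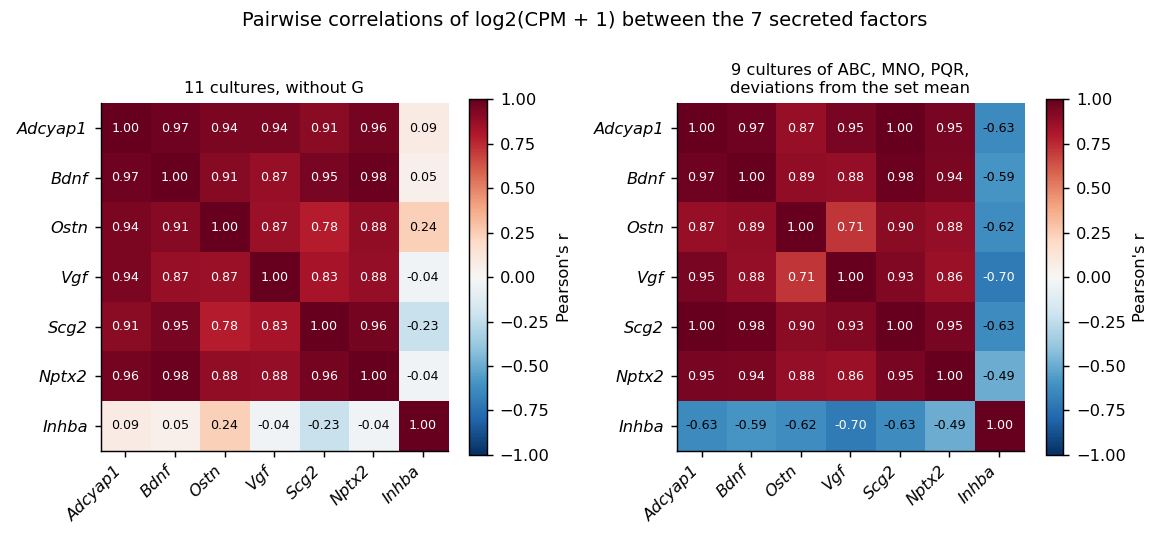
Pearson's r between the 7 genes for log2(CPM + 1) in the 11 cultures without G (left) and for deviations from the letter-set mean in 9 cultures (right), with colour from -1 to 1. The 6 genes other than Inhba are at 0.71 or above with each other in both panels, and Inhba is at 0.24 or below with each.

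Other genes were ranked by r of their deviations from the set mean with those of each secreted factor over the 9 cultures. The 11885 genes ranked had a mean of at least 1 CPM and did not include the 7 secreted factors. Adcyap1 and Scg2 were nearer to each other (0.996) than to any gene ranked. Ostn was nearest to Npas4 (r = 0.989), an activity-induced transcription factor. Nptx2 was nearest to Nr4a1 (0.977), a nuclear receptor of the immediate early class. Vgf was nearest to Gpr3 (0.993), a receptor that raises cyclic AMP, and Adcyap1 and Scg2 were both nearest to Sgsm1 (0.986 and 0.989). Bdnf was nearest to Surf2 (0.982) and Inhba to Nudc (0.968). Over all 12 cultures the nearest genes were others, Ppp1cc for Ostn, Ret for Nptx2, Sdhd for Vgf, Slc2a8 for Adcyap1, Lamb3 for Scg2, Ociad2 for Bdnf and Dyrk3 for Inhba. There r was 0.779 for Ostn with Npas4, 0.561 for Vgf with Gpr3 and 0.531 for Scg2 with Sgsm1. The 10 genes nearest to the mean of the 7 over the 9 cultures were, from the highest r of 0.976 to 0.961, Mustn1, Slc2a8, Sgsm1, Fads1, Hsd11b1, Fosb, Narfl, Plk3, Sema3a and Nr4a1. Of these, Hsd11b1, Mustn1, Narfl and Nr4a1 were also among the 10 nearest over all 12 cultures. With so many genes and 9 cultures, high values of r arise for many genes, and no function is read from them.

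Neuron marker scores were slightly higher at 10 µM. The neuron score, a mean of log2(CPM + 1) over 12 markers, was higher at the high than at the low dose by 0.02, 0.08, 0.24 and 0.23 in the 4 sets, and the glutamatergic score by 0.05, 0.11, 0.16 and 0.11. Single markers differed in direction. Of the 12 neuron markers, 1 was lower in all 4 sets (Gap43, 144 CPM in H against 84.9 in I) and 4 were higher (Map2, Syt1, Nefm and Syn1). Of the 7 glutamatergic markers, 1 was lower in all 4 sets (Slc17a6, at 9.09 to 14.7 CPM at the high and 20.2 to 26.6 CPM at the low dose) and 4 were higher (Slc17a7, Neurod2, Tbr1 and Camk2a). Measured relative to the neuron score of the same culture, the mean within-set difference between high and low dose was -1.58 ± 0.42 for Vgf, -1.47 ± 0.47 for Adcyap1, -1.32 ± 0.47 for Scg2, -1.52 ± 0.68 for Bdnf, -1.91 ± 1.29 for Ostn and -1.37 ± 0.98 for Nptx2 (SD, n = 4 sets). Adcyap1, Bdnf, Vgf, Scg2 and Nptx2 were then lower in all 4 sets, while Inhba was at 0.05 ± 0.17. Ostn had no counts in B and C, so its value of -0.02 in ABC came from the neuron score alone. The astrocyte score differed by 0.03, -0.25, -0.27 and -0.42, the microglia score by 0.21, 0.48, -0.59 and -0.10, and the fibroblast score by 0.24, -0.22, -2.03 and 0.02. The fibroblast difference of MNO rests on culture N. Without N, the fitted log2 fold change between high and low dose was -0.95 for Adcyap1, -1.15 for Nptx2 and -1.88 for Ostn. Whether fibroblast content played a part in the values of the 6 genes was not tested. Neuron scores in ABC, the set with low levels of the 6 genes, were 8.19 to 8.28.

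Immediate early transcription factors come before the secreted factors in the response to activity. Of 14 tested, 0 were called in any comparison and 0 had an unadjusted p under 0.05 in edgeR's quasi-likelihood test, and their median log2 fold change between high and low dose was 0.02. The within-set median between high and low dose was 0.22 in ABC, 0.09 in GHI, -0.44 in MNO and -0.27 in PQR. For the secreted factors it was -0.61, -1.35, -1.64 and -1.52. Npas4 was at 79.9 CPM in H and 81.4 in I, and at 14.9 CPM in N against 3.10 in O and 18.0 in Q against 3.06 in R. In GHI, therefore, Npas4 was level between the doses while Vgf, Scg2, Adcyap1 and Ostn differed by 2.56-fold or more. Bdnf and Nptx2 differed by less, at 17.7 and 52.3 CPM in H and 8.22 and 30.3 CPM in I. The secreted factors had been selected as lower at the high dose, so their contrast with the transcription factors supports no claim. Fos, the best known of the class, differed between high and low dose by 0.26, 0.11, 0.21 and -0.14 in the 4 sets. Of the 14, 1 was lower in all 4 sets (Fosb, by 0.08 to 1.24), beside 11.1% of all genes. In ABC, Npas4 was at 0.236, 0.539 and 0.237 CPM in A, B and C, the lowest level of each condition apart from 0.0649 CPM in G.

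**Figure D5:**
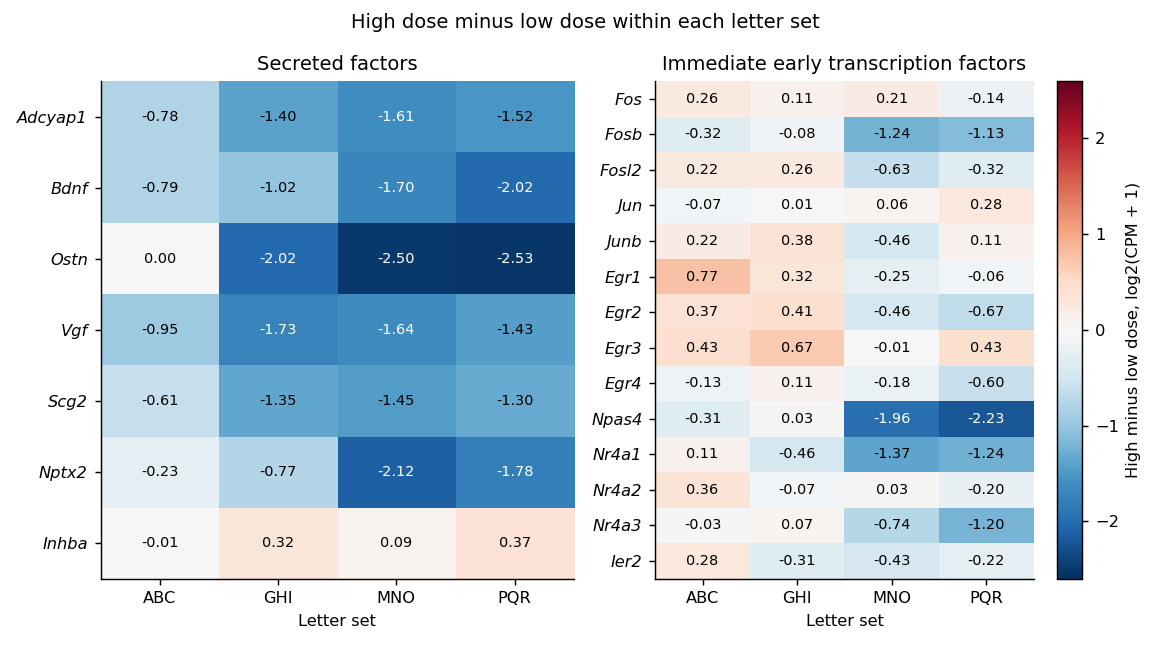
High dose minus low dose in log2(CPM + 1) for the secreted factors (left) and 14 immediate early transcription factors (right) in each letter set (columns), with values printed and coloured from blue (lower at the high dose) to red. Vgf, Scg2, Adcyap1, Bdnf and Nptx2 are blue in all sets, and among the transcription factors values below -0.5 occur in MNO and PQR only.

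Among 23 other activity-regulated effector genes, 0 were called and 18 had a log2 fold change below 0 between high and low dose, with a median of -0.21. Over all genes, 6429 of 12271 were below 0, with a median of -0.01. Penk, the enkephalin precursor, was at -0.91 (SE 0.23, unadjusted p = 0.00277, adjusted p = 0.9999 by edgeR's quasi-likelihood test) and was lower in all 4 sets, by 0.61, 0.75, 1.15 and 0.86. The corticotropin-releasing hormone gene Crh was at -1.88 (SE 1.35), the angiotensin receptor gene Mas1 at -1.61 (SE 0.94) and the phosphatase gene Dusp4 at -0.98 (SE 0.61). Of the 23, 8 were lower in all 4 sets, namely Arc, Crh, Mas1, Npy, Pcsk1, Penk, Rgs4 and Rheb, and 1 was higher (Nptx1), beside 11.1% and 11.7% of all genes. In ABC, Crh was under the floor of 3 counts in B and C, and Pcsk1 was level at 44.3 CPM in both. The list was chosen with earlier results of these data known, so nothing is read from these shares. Arc, which regulates AMPA receptor uptake at synapses, was lower by 0.54, 0.18, 1.08 and 1.63, so its difference was also smallest in GHI, where it was at 170 CPM in H and 150 CPM in I.

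Receptors turn the 7 factors into a response of the receiving cell. Of 21 receptors and binding partners, 20 were tested, 0 were called in the 3 comparisons, 0 had an unadjusted p under 0.05, and the median log2 fold change between high and low dose was 0.05. In all 4 sets, 4 were lower (Fstl3, Nptxr, Ntrk2 and Vipr1) and 5 higher (Acvr1, Acvr2a, Adcyap1r1, Nptx1 and Tgfbr3), beside 11.1% and 11.7% of all genes. Follistatin (Fst), which binds activin, was the gene not tested. Ntrk2, which encodes the Bdnf receptor TrkB and is also expressed by astrocytes, was at 768 to 1569 CPM in the 12 cultures and differed between high and low dose by -0.01, -0.02, -0.19 and -0.20 in the 4 sets. The PACAP receptor gene Adcyap1r1 was higher by 0.09, 0.24, 0.17 and 0.04, and Vipr1, which also binds PACAP, was lower by 0.62, 0.12, 0.82 and 0.40. The Ostn receptor gene Npr3 differed by -0.03, -0.21, -0.84 and 0.03. Nptxr, a membrane-bound partner of Nptx2, was at 515 to 534 CPM in the low dose and 467 to 487 CPM in the high dose cultures, 2 ranges that did not overlap. Vipr1 did not overlap either, at 27.7 to 35.7 CPM in the low dose and 18.9 to 26.8 CPM in the high dose cultures. These were 2 of the 20 tested, beside 64 of all genes (0.522%). Nptx1, the closest relative of Nptx2, differed in the other direction from it, by 0.01, 0.61, 0.55 and 0.62. The activin receptor genes Acvr1 and Acvr2a had fitted log2 fold changes of 0.26 (SE 0.12) and 0.38 (SE 0.24).

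Of 16 prohormone processing and dense core granule genes, 0 were called and 6 were lower at the high than at the low dose in all 4 sets, namely Chgb, Cpe, Pam, Pcsk1, Ptprn and Scg3, with none higher, beside 11.1% and 11.7% of all genes. Their median log2 fold change was 0.03. Pam, the enzyme that amidates the ends of peptides, had a log2 fold change of -0.42 (SE 0.11, unadjusted p = 0.00289, adjusted p = 0.9999 by edgeR's quasi-likelihood test). It was at 467 to 603 CPM at the low dose and 382 to 427 CPM at the high dose. The groups did not overlap for this 1 of the 16, beside 64 of all genes (0.522%). Chgb, a granin like Scg2, was lower by 0.11, 0.23, 0.38 and 0.15, a smaller difference than that of Scg2 in each set. Pcsk1, a convertase that cuts Vgf and other precursors, was level in ABC and GHI and lower by 0.75 and 0.57 in MNO and PQR. Among 14 CREB and MEF2 pathway regulators, 0 were called, 0 were lower in all 4 sets and 5 were higher (Camk2a, Camk4, Crebbp, Crtc1 and Srf), beside 11.1% and 11.7% of all genes. The CREB coactivator gene Crtc1 and Creb1 itself had log2 fold changes of 0.31 (SE 0.12, unadjusted p = 0.0272) and 0.40 (SE 0.18, unadjusted p = 0.0452), with adjusted p = 0.9999 for both in edgeR's quasi-likelihood test.

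In neuron-poor culture G the 7 genes parted. Adcyap1 and Nptx2, at 1.23 and 1.49 CPM, were lower than in any other culture, and Ostn had 1 count. Vgf at 553 CPM was higher than in any other culture. Scg2 and Inhba, at 99.1 and 1.95 CPM, were within the range of the others, as was Bdnf at 4.48 CPM. The convertase gene Pcsk1, at 107 CPM, and Penk, at 65.1 CPM, were also highest in G.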

How the data were processed

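The authors prepared poly(A) libraries with the Illumina TruSeq RNA kit v2, aligned reads to rn6 with STAR and deposited featureCounts read counts per gene and culture, as whole numbers without normalization. The analysis used edgeR 4.0.16 with limma 3.58.1 under R 4.3.3, and DESeq2 1.42.0 as an alternative. After TMM scaling, filterByExpr kept 12271 genes, and the RUVs formula gave 1 factor of unwanted variation, since the study names RUVseq without its settings. The quasi-likelihood test was fitted to all genes and all 12 cultures. The fit was also run on simulated counts with less spread than these data and no outlying culture. That run does not show what the fit can detect here. CPM used TMM library sizes and a pseudocount of 1 on the log2 scale. All 7 symbols are current RefSeq symbols. Coordinates and sequences were not used here. The 7 genes, the 5 gene lists and the marker lists were chosen with earlier results of these data known, so no claim is drawn from shares of these lists. Listed genes named in the text are receptors, those with an unadjusted p under 0.05, those with 1 of the 4 largest changes, and genes chosen after their values were seen. Alternatives were other factor numbers, tests, scalings and filters, a letter-set block and each culture left out. The floor of 3 counts covers counting error only.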

Additional observations from a re-analysis of the deposited data

Results flagged for a closer look

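Of 48 groups of 4 cultures tested, 4 held a culture whose gap to the others exceeded Dixon's critical value at the 95% level, where chance gives about 1 in 20. High dose culture O had an Inhba level of 2.90 CPM, against 1.36 to 1.55 CPM in the other high dose cultures, and its set also held the highest Inhba level in the other conditions. Untreated culture G had a neuron marker score of 4.52, against 7.78 to 8.28, and a glutamatergic neuron marker score of 1.85, against 5.63 to 6.0. Low dose culture N had a fibroblast marker score of 7.59, against 4.29 to 4.51. None of the other secreted factors had such a culture in any condition.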

How the results depend on the processing

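The fitted differences of 6 genes between high and low dose (Inhba left aside) were below 0 in 137 of 137 alternative values. These came from 23 alternative fits per gene, or 22 for Ostn. With each culture left out in turn, 0 genes were called in every comparison. The block by letter sets called 0 genes with all 12 cultures. As deviations from the condition means, the low and high dose cultures of a set had r from 0.657 to 0.888. Untreated A and P gave 0.723 to 0.768 with their sets, untreated M 0.101 and 0.295, and untreated G -0.192 and -0.0455. Cultures of different sets reached at most 0.501, which was untreated M with I. Untreated M gave 0.448 with H, and untreated G gave 0.405 with N and 0.328 with O. Untreated M and G were thus each nearer to the other's set than to their own. The GHI and MNO differences from untreated rest on these letters. No source names the sets as a pairing, so the block was kept as an alternative to the main fit. Among all genes, those called for high dose vs. untreated numbered 1 with 2 RUVs factors, 39 with 4 factors, 15 with the block and G left out, 2 with the block and G, H and I left out, 3 with DESeq2 and 2 with the likelihood ratio test. For high vs. low dose they numbered 1, 113, 14 and 5 under the first 4 of these and 1 with DESeq2. Secreted factors among them numbered 3, 2 and 1 for high dose vs. untreated and 6, 5 and 3 for high vs. low dose with 4 factors, the block without G, and the block without G, H and I, and 0 otherwise. The cause was not tested. Of 540 alternative values for the secreted factors, 4 moved by more than 1 SD and 14 changed sign. Without untreated M, Inhba was at 0.86 (low dose) and 1.14 (high dose) relative to untreated, and without untreated P, Scg2 was at 1.59 and 0.30. Requiring 10 counts in every culture removed Ostn and Inhba.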

Other observations

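A description chosen after the values were seen asked which genes shared the pattern of the secreted factors, being lower at the high than at the low dose in all 4 letter sets with a mean difference below -1 on the log2(CPM + 1) scale. There were 22 such genes, 5 of them secreted factors described above. Of the other 17, several encode neuropeptides or proteins that act with them. Cartpt, a neuropeptide precursor, averaged -1.32 ± 0.41, the dynorphin precursor Pdyn -1.15 ± 0.62, thyrotropin-releasing hormone Trh -1.07 ± 0.26 and the corticotropin-releasing hormone binding protein Crhbp -1.10 ± 0.20 (SD, n = 4 sets). Slc17a6, a vesicular glutamate transporter, averaged -1.02 ± 0.39, with 9.09 to 14.7 CPM at the high dose and 20.2 to 26.6 CPM at the low dose. Others included Serpinf1 (-1.63 ± 1.33), which encodes a secreted serpin, and genes for proteins of the matrix or of contractile cells. Among the latter were Acta2 (-1.30 ± 1.01), Fbln5 (-1.08 ± 1.01) and Mfap4 (-1.07 ± 1.61). Serpinf1, Acta2, Fbln5 and Mfap4 each differed most in MNO, the set of the fibroblast-rich culture N.

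The reverse description, higher at the high dose in all 4 sets by a mean above 1, held for 13 genes and none of the secreted factors. They included Lcn2, a secreted lipocalin of reactive astrocytes, at 1.74 ± 1.0, the complement genes C3 at 1.54 ± 0.82 and Cfb at 1.44 ± 0.35, and the chemokine genes Cxcl1 at 1.38 ± 0.95, Ccl2 at 1.19 ± 0.55 and Ccl7 at 1.09 ± 0.48. None of the 22 or 13 genes was called by edgeR's quasi-likelihood test.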
